A study of Bos taurus with 129 samples.

Results

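Red blood cells are made in the bone marrow, where erythroblasts build hemoglobin from globin chains and heme, reshape their membrane and then lose the nucleus. The last stage before the mature cell, the reticulocyte, still carries messenger RNA, whereas the mature red cell carries little and makes no more. In healthy adult cattle reticulocytes are scarce in circulating blood, so erythroid transcripts there are a small share of the RNA of whole blood, and white cells and platelets supply most of the rest. The 9 genes described here were chosen by name for their part in this program. The rule that lists them sets no threshold on a measured value, but it was written with earlier results of these data known. ALAS2 encodes the erythroid form of the first enzyme of heme synthesis, and SLC25A37 (mitoferrin) carries iron into the mitochondrion for it. AHSP is a chaperone of free alpha globin, and SLC4A1 (band 3) and EPB42 (protein 4.2) are partners in the red cell membrane. HEMGN is a nuclear protein of developing blood cells, BPGM makes the metabolite that lowers the oxygen affinity of hemoglobin in many mammals, and GATA1 and KLF1 are transcription factors of the lineage. GATA1 is also used by megakaryocytes, eosinophils, basophils and mast cells.

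All 9 genes were among the 32395 genes of the count table, and all 9 passed the filter on low counts that left 18937 genes for testing. Whole blood RNA had been sequenced from 26 purchased crossbred beef steers at enrollment in a stocker facility (day 0) and again at days 13, 28, 45 and 60. The steers had no recorded history, were hauled over a long distance before enrollment, and were all vaccinated against respiratory viruses and given doramectin at day 0 with a second vaccination between days 13 and 28. Age is not given in the sources used here. The label for disease splits them into 12 cattle without bovine respiratory disease (BRD), called healthy below, with 59 libraries, and 14 cattle with BRD, with 70 libraries. The day of diagnosis is not given in the sources used here, so a library of a BRD animal may precede or follow its illness. The supplement groups were INR (sulfate Cu, Co, Mn and Zn in feed), AAC (amino acid complexed Cu, Co, Mn and Zn in feed) and COMBO (the complexed minerals in feed and a trace mineral drench before shipment, at day 0 and with any treatment for illness). The study had no group without a supplement. The healthy cattle were 4 AAC, 4 COMBO and 4 INR steers, the BRD cattle 4 AAC, 3 COMBO and 7 INR steers, and the healthy AAC group has 3 libraries at day 13 because the authors removed 1 library.

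Total counts per library ranged from 31613545 to 61692136. The levels below are CPM, counts scaled to a common library total with TMM normalization, whose factor per library ranged from 0.906 to 1.09, and a count of 3 in a library corresponded to 0.0486 to 0.0949 CPM. Markers of whole blood were present throughout. The leukocyte antigen PTPRC lay between 1452 and 2362 CPM, the B cell gene CD79A between 336 and 1120 CPM and the platelet integrin ITGA2B between 122.7 and 266 CPM. Of the 14 globin genes listed, 10 were in the table and 8 passed the filter, and all listed globins together took 0.00285% to 8.00% of the counts of a library, with a median of 0.176%. The 9 genes were measured with very different depth. The median count over all libraries was 1196 for ALAS2, 764 for KLF1, 541 for BPGM, 295 for SLC25A37, 255 for GATA1, 80 for EPB42, 29 for HEMGN, 27 for SLC4A1 and 21 for AHSP. SLC4A1 was at 0 counts in 12 libraries, and no other of the 9 genes was at 0 in any library. The levels of different genes are not compared with each other, because the counts are not scaled to transcript length. In a bulk sample of blood, fewer cells of a type and less RNA per cell cannot be told apart.

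The first question was how the erythroid genes moved over the 60 days in the same animals. From day 0 to day 13, ALAS2 rose 7.64-fold in healthy cattle and 17.9-fold in BRD cattle, the membrane gene EPB42 rose in both, and AHSP, SLC4A1, HEMGN and KLF1 rose in BRD cattle as well. Changes between days were tested with edgeR's quasi-likelihood test with the animal as a block and a call at an FDR below 0.10. In healthy cattle 2 of 9 genes were called higher and 0 lower at day 13, while 6.11% of all tested genes were called higher and 4.84% lower. In BRD cattle 6 of 9 genes were called higher and 0 lower, against 9.08% of all tested genes higher and 8.35% lower. The median log2 fold change of the 9 genes was 0.77 in healthy and 1.13 in BRD cattle, against medians over all tested genes of 0.01 and 0.00.

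**Figure D1:**
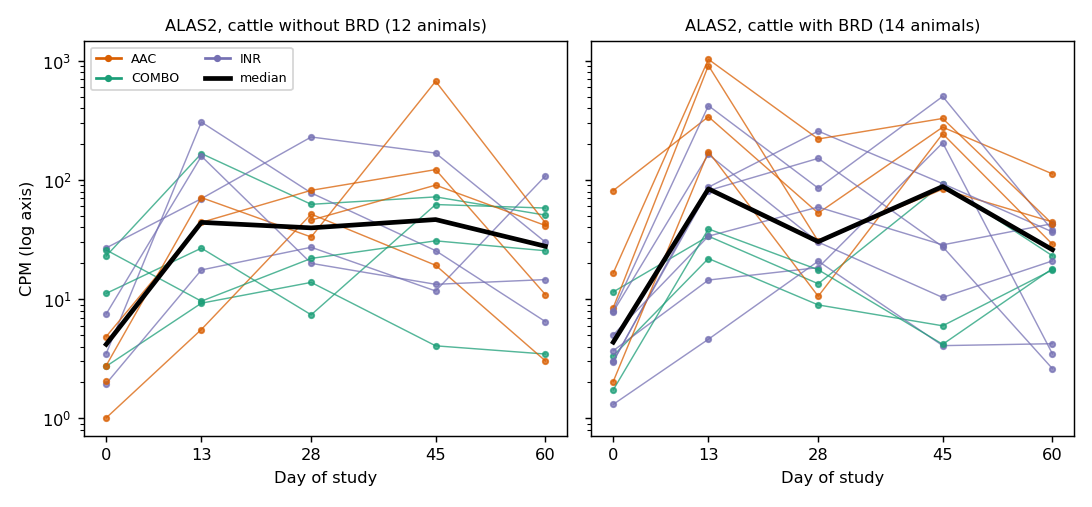
ALAS2 level in CPM (log axis) against day of study for each of 12 healthy (left) and 14 BRD cattle (right), with 1 line per animal coloured by supplement group and the median in black. The median rose from 4.18 to 44.1 CPM in healthy and from 4.35 to 84.23 CPM in BRD cattle between days 0 and 13, and the animals spread over more than a factor of 10 at each day.

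ALAS2, the gateway enzyme of erythroid heme synthesis, ran from 1.01 to 26.9 CPM at day 0 in the 12 healthy cattle, with a median of 4.18 CPM. At day 13 the 11 healthy libraries ran from 5.56 to 306 CPM, with a median of 44.1 CPM. Thus the day 13 levels overlapped those of day 0, but ALAS2 was higher at day 13 in 10 of 11 healthy animals with both days, COMBO animal 57 being the exception with 25.9 CPM at day 0 and 9.61 CPM at day 13. In the 14 BRD cattle, ALAS2 ran from 1.31 to 81.4 CPM with a median of 4.35 CPM at day 0, and from 4.61 to 1028 CPM with a median of 84.23 CPM at day 13. It was higher at day 13 in 14 of 14 BRD animals, by 1.55 to 6.74 on the log2 scale. The fitted log2 fold change was 2.93 ± 0.69 (SE) in healthy cattle (edgeR FDR 0.00279) and 4.16 ± 0.63 in BRD cattle (edgeR FDR 6.7e-07).

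After day 13 the medians of ALAS2 did not return to those of day 0. They were 39.6, 46.5 and 27.8 CPM at days 28, 45 and 60 in healthy cattle, and 30.4, 88.1 and 26.0 CPM in BRD cattle. No step between neighbouring days after day 13 was called for ALAS2 by edgeR in either label, while DESeq2 called it lower at day 60 than at day 45 in BRD cattle. At day 60 against day 0 the log2 fold change was 1.84 ± 0.65 in healthy cattle (edgeR FDR 0.0638, higher in 11 of 12 animals) and 1.96 ± 0.57 in BRD cattle (edgeR FDR 0.0115, higher in 12 of 14 animals). Without healthy animal 10, 42 or 48, ALAS2 was no longer called between days 60 and 0 in healthy cattle (log2 fold changes of 1.29 to 2.19 over the 12 animals left out in turn). Without the animal block the BRD call was lost as well (edgeR FDR 0.120), and limma called ALAS2 in BRD but not in healthy cattle. At day 60, 1 of 9 genes was called higher than at day 0 in healthy cattle (5.83% of all tested genes), and in BRD cattle 3 of 9 were called, 2 higher and 1 lower (19.6% of all tested genes in either direction). Over these days EPB42 was also called in BRD cattle without animal 43 (edgeR FDR 0.0797), and KLF1 in healthy cattle without animal 10 (0.0976).

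The membrane and chaperone genes also rose at day 13 in BRD cattle, and EPB42 in healthy cattle as well. EPB42, which ties band 3 to the membrane skeleton, had a median of 0.874 CPM (range 0.267 to 3.63) in healthy cattle at day 0 and of 2.23 CPM (0.623 to 7.24) at day 13. It was higher in 10 of 11 healthy animals, with a log2 fold change of 1.60 ± 0.39 (edgeR FDR 0.00401). In BRD cattle its median went from 0.666 CPM (0.230 to 2.87) to 3.00 CPM (0.713 to 28.1), it was higher in 13 of 14 animals, and the log2 fold change was 2.36 ± 0.36 (edgeR FDR 6.7e-07). The ranges of the days overlapped in both labels, and the rise was measured within animals.

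SLC4A1, the anion exchanger of the red cell membrane, had a median of 0.434 CPM (0 to 1.11) in BRD cattle at day 0 and of 2.16 CPM (0.412 to 21.1) at day 13. The log2 fold change was 2.84 ± 0.65 (edgeR FDR 0.00107), and SLC4A1 was higher in 11 of 14 animals. In healthy cattle its medians were 0.263 CPM (0 to 7.07) and 1.13 CPM (0 to 4.86), a change that was not called. HEMGN went from a median of 0.368 CPM (0.0743 to 1.57) to 1.83 CPM (0.428 to 8.84) in BRD cattle, higher in 13 of 14 animals, with a log2 fold change of 2.50 ± 0.46 (edgeR FDR 4.5e-05). In healthy cattle HEMGN had medians of 0.284 CPM (0.119 to 4.05) and 0.785 CPM (0.147 to 3.94) and was not called. HEMGN in healthy cattle depended on 1 animal, since without COMBO animal 6, which had the highest level at day 0, its log2 fold change of 1.51 was called (edgeR FDR 0.0797).

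AHSP, which keeps free alpha globin from precipitating, was measured at low depth. Its median in BRD cattle was 0.341 CPM (0.167 to 0.858) at day 0 and 0.635 CPM (0.333 to 2.81) at day 13, it was higher in 11 of 14 animals, and the log2 fold change was 1.13 ± 0.24 (edgeR FDR 0.00039). In healthy cattle the medians were 0.438 CPM (0.182 to 1.26) and 0.580 CPM (0.374 to 0.839), without a call. The 5 genes ALAS2, AHSP, SLC4A1, HEMGN and EPB42 were thus the ones called in BRD cattle together with KLF1.

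**Figure D2:**
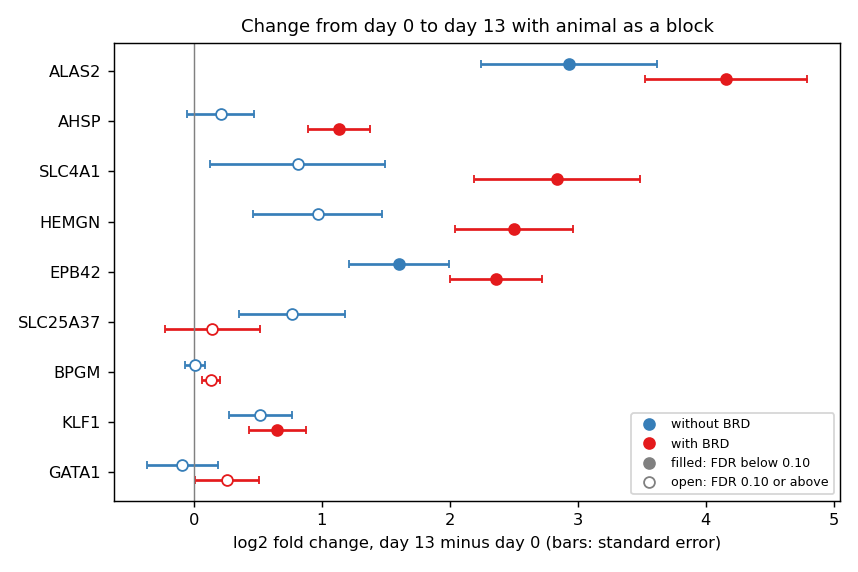
Fitted log2 fold change from day 0 to day 13 for each of the 9 genes (x axis, bars are standard errors) in 11 healthy animals with both days and 14 BRD animals, from the fit with animal as a block to all libraries. Filled points passed an FDR of 0.10 (6 genes in BRD, 2 in healthy cattle), and all 9 BRD estimates lie above 0.

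Although more of these genes passed the threshold in BRD than in healthy cattle, the difference between the changes was itself not called for any gene at day 13. The BRD change exceeded the healthy change by 0.92 ± 0.36 on the log2 scale for AHSP, 1.53 ± 0.68 for HEMGN and 2.03 ± 0.94 for SLC4A1, with unadjusted p of 0.0108, 0.0271 and 0.0339 and an edgeR FDR of 1 for each. Of 45 such differences over 5 pairs of days, 0 were called and 5 had an unadjusted p under 0.05, and over all 18937 genes 0 were called (0%). DESeq2 and limma also called 0 of the 45.

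KLF1, a transcription factor of late red cell development, was measured with a count of at least 191 in each library. Its median in BRD cattle was 12.4 CPM (4.54 to 25.48) at day 0 and 20 CPM (7.73 to 39.7) at day 13, with a log2 fold change of 0.65 ± 0.22 (edgeR FDR 0.0394, higher in 11 of 14 animals). This call was lost without COMBO animal 16 (edgeR FDR 0.137) and without the animal block (0.120). In healthy cattle KLF1 had medians of 11.29 CPM (6.31 to 37.01) and 19.6 CPM (4.70 to 44.5) and a log2 fold change of 0.52 ± 0.25 (edgeR FDR 0.196), and without animal 3 it was called with a log2 fold change of 0.66 (edgeR FDR 0.0760). From day 28 on its medians lay between 14.8 and 23.9 CPM in both labels.

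GATA1, the master regulator of the erythroid and megakaryocyte lines, was not called at day 13 in either label. Its median was 5.08 CPM at both day 0 (2.06 to 12.7) and day 13 (2.62 to 14.4) in BRD cattle, and 5.79 CPM (2.66 to 18.8) and 5.60 CPM (2.76 to 12.9) in healthy cattle. In BRD cattle it went from 4.59 CPM (2.08 to 7.24) at day 28 to 6.51 CPM (1.46 to 22.8) at day 45, a log2 fold change of 0.74 ± 0.25 (edgeR FDR 0.0526, higher in 9 of 14 animals). It was the only 1 of the 9 genes called higher over these days, against 6.18% of all tested genes. At day 60 against day 0 its log2 fold change in BRD cattle was 0.61 ± 0.25 (edgeR FDR 0.0905, higher in 9 of 14 animals). Both calls were lost when single animals were left out, the first without animal 16, 17, 18 or 40 and the second without any 1 of 8 animals (log2 fold changes of 0.47 to 0.79), and the second was also lost without the day 60 library of animal 40, which had low RNA quality (edgeR FDR 0.1076). Of 11 eosinophil, basophil and mast cell markers, 4 rose and 0 fell in BRD cattle from day 28 to day 45, among them IL5RA by 1.15 ± 0.34 (edgeR FDR 0.0205), ALOX15 by 1.07 ± 0.37 (edgeR FDR 0.0580) and CEBPE by 0.77 ± 0.27 (edgeR FDR 0.0593) on the log2 scale. From day 0 to day 60, 6 of the 11 rose and 0 fell, where 19.6% of all tested genes were called in either direction. Among the 6 were CCR3, higher by 1.03 ± 0.20 (edgeR FDR 6.7e-05), ALOX15 by 1.82 ± 0.36 (edgeR FDR 0.00014) and IL5RA by 1.12 ± 0.33 (edgeR FDR 0.0125). MPO, a granule enzyme of neutrophils and 1 of 10 neutrophil markers, rose over both spans, by 1.12 ± 0.34 and 1.17 ± 0.34. The neutrophil list as a whole did not rise with it. Its summed level in BRD cattle had medians of 2180 CPM at day 0, 1553 CPM at day 28, 1578 CPM at day 45 and 1447 CPM at day 60. The summed level of the 11 markers in BRD cattle had medians of 494 CPM (378 to 1213) at day 0, 435 CPM (347 to 1004) at day 28, 596 CPM (464 to 1065) at day 45 and 583 CPM (427 to 1113) at day 60. The part of these markers in the GATA1 changes was not tested.

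SLC25A37, the mitochondrial iron importer, was not called at day 13 in either label. In BRD cattle its median was 10.3 CPM (1.97 to 34.6) at day 0, 11.7 CPM (2.75 to 37.8) at day 13, 6.95 CPM (1.18 to 11.7) at day 28, 6.53 CPM (1.70 to 14.4) at day 45 and 5.28 CPM (1.06 to 20.9) at day 60. Between days 0 and 60 it fell by 1.04 on the log2 scale (SE 0.38, edgeR FDR 0.0503, lower in 11 of 14 animals), a call that was lost without animal 21, 31, 39 or 40. In healthy cattle the median was 2.86 CPM (1.19 to 12.02) at day 0 and between 5.35 and 7.61 CPM later, with no called change. The current RefSeq annotation (ARS-UCD2.0, a later assembly than that of the counts) places a further protein-coding locus over SLC25A37, and a non-coding locus over HEMGN, so the counts of these 2 genes could hold reads of the overlapping loci.

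BPGM, the red cell enzyme of bisphosphoglycerate, was the steadiest of the 9 genes. Its medians lay between 11.1 and 13.5 CPM at all days in both labels, and its lowest and highest libraries were 7.60 and 20.3 CPM. None of its changes between days was called by edgeR or DESeq2, while limma called it lower at day 60 than at day 45 in BRD cattle. In healthy cattle without animal 3, edgeR called BPGM higher at day 45 than at day 28 (log2 fold change 0.23, FDR 0.0504).

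**Figure D3:**
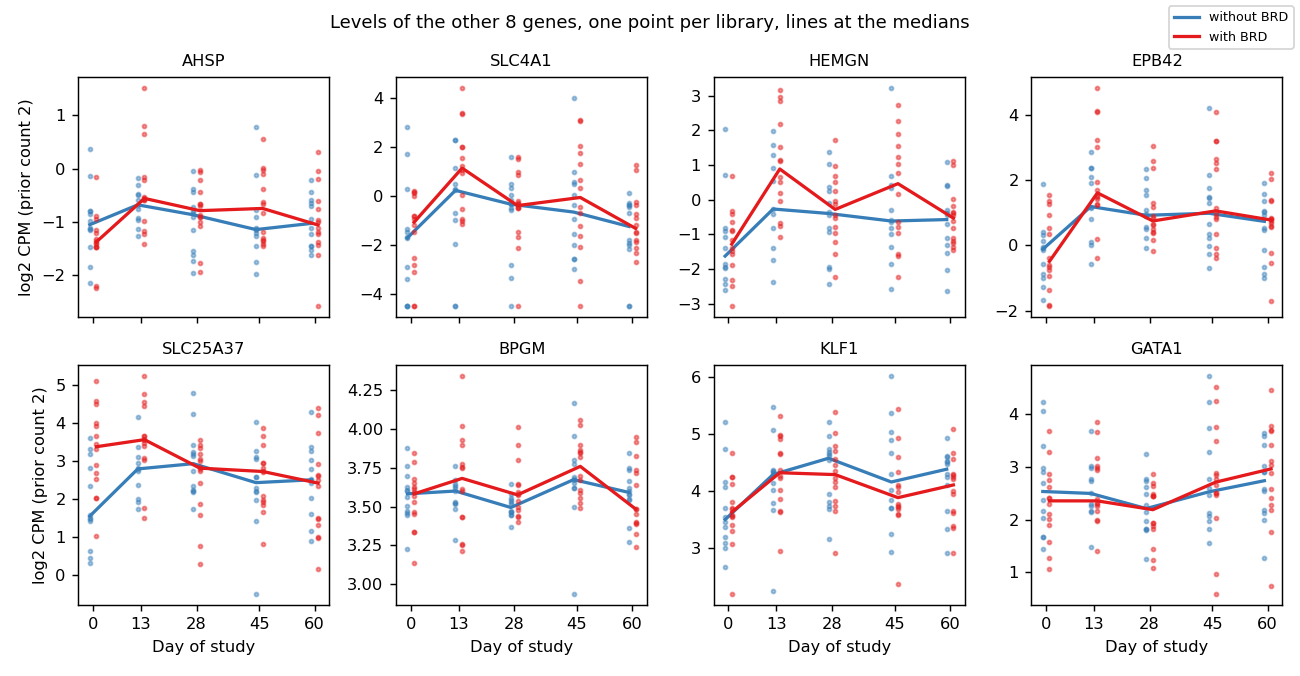
Log2 CPM (prior count of 2) of the other 8 genes by day of study in healthy and BRD cattle, with 1 point per library and lines at the medians; the scales of the y axes differ between genes. AHSP, SLC4A1, HEMGN and EPB42 have their highest BRD median at day 13, BPGM spans the narrowest range, and SLC25A37 starts at 10.3 CPM in BRD against 2.86 CPM in healthy cattle.

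The later steps between neighbouring days brought few calls. From day 13 to day 28, 0 of 9 genes were called in healthy cattle (0.0686% of all tested genes) and 0 of 9 in BRD cattle (0.602% of all tested genes), by edgeR. In BRD cattle all 9 estimates were below 0 and 5 had an unadjusted p under 0.05, while in healthy cattle none had. DESeq2 and limma each called EPB42 and HEMGN lower at day 28 in BRD cattle, and edgeR called EPB42 without INR animal 23, 27 or 43 and HEMGN without 27 or 43. From day 28 to day 45, 0 of 9 genes were called in healthy cattle by edgeR, DESeq2 or limma, with 2 at an unadjusted p under 0.05, and 8 of the 9 estimates were above 0, while 5.06% of all tested genes were called higher. From day 45 to day 60, EPB42 fell by 1.06 on the log2 scale in BRD cattle (SE 0.34, edgeR FDR 0.0871, lower in 11 of 14 animals), where 1.21% of all tested genes were called lower, and the call was lost without any 1 of 9 of the 14 animals. Over the same days in healthy cattle 0 of 9 genes were called, with 0 at an unadjusted p under 0.05, as were 0 of all tested genes (0%).

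The second question was whether healthy and BRD cattle differed at a given day. Both labels shared their first pens among AAC steers (pens 2 and 8) and in part among INR steers (pens 3 and 4), whereas the sampled steers of pen 7 all had BRD, and all healthy COMBO steers were in pen 5 and all BRD COMBO steers in pen 6. A comparison within the shared pens was not run, and for COMBO steers label and first pen cannot be told apart. Over the 5 days and 9 genes, 0 of 45 comparisons were called by edgeR or by DESeq2, with 3 at an unadjusted p under 0.05. Of all tested genes, 0.0158% were called at day 0, 0.00528% at day 28, 0.00528% at day 60 and 0% at the other days. The smallest FDR was that of SLC25A37 at day 0. Its 14 BRD libraries ran from 1.97 to 34.6 CPM (median 10.3) and its 12 healthy libraries from 1.19 to 12.02 CPM (median 2.86), and the log2 difference, BRD minus healthy, was 1.16 ± 0.38 (edgeR FDR 0.339). Without COMBO animal 16, which has the BRD label, SLC25A37 was called at day 0 (edgeR FDR 0.0923). In that fit 303 of all tested genes were called at day 0, against 3 with all animals. At day 13 the estimates of all 9 genes were higher in BRD cattle, with a median log2 difference of 0.80, and none was called (0% of all tested genes).

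The third question was whether the supplement groups differed. Among healthy cattle, 0 of 135 comparisons (3 pairs of groups, 5 days, 9 genes) were called by edgeR or by DESeq2, with 20 at an unadjusted p under 0.05. The smallest FDR was 0.394, for SLC4A1 between AAC and COMBO at day 0, where 0% of all tested genes were called. Of all tested genes, 0.766% were called between AAC and INR at day 13, 0.164% between COMBO and INR at day 13, 0.00528% between AAC and INR at day 28 and 0% in the other comparisons. Among BRD cattle 5 of 135 comparisons were called, all at day 13 and all higher in AAC. Against COMBO, 4 of 9 genes were higher in AAC at day 13, while 4.22% of all tested genes were called higher. Against INR, 1 of 9 genes was higher, while 0.591% of all tested genes were called higher. At the other days, with 0 of 9 genes called, AAC and COMBO differed in 15.4%, 0.396%, 0.0845% and 0.655% of all tested genes at days 0, 28, 45 and 60. AAC and INR differed in 1.18%, 0.713%, 0.127% and 2.03% at the same days, and COMBO and INR in 2.31%, 0.0317%, 0.0211%, 0.0106% and 0.0317% at days 0, 13, 28, 45 and 60. DESeq2 called the same 5 differences and 2 more, HEMGN between AAC and COMBO at day 13 and SLC25A37 between AAC and INR at day 60.

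**Figure D4:**
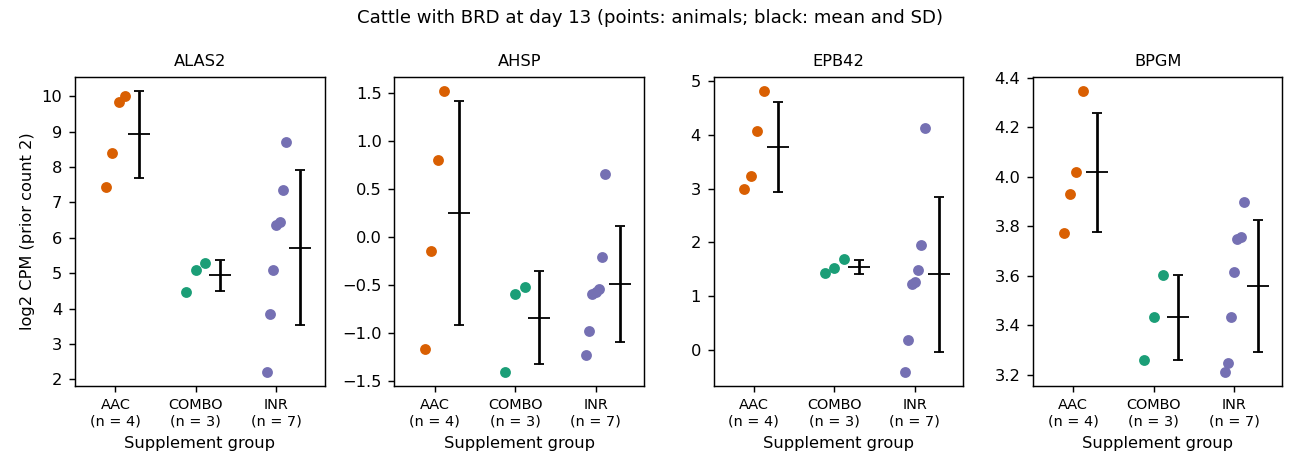
Log2 CPM (prior count of 2) of ALAS2, AHSP, EPB42 and BPGM in the BRD cattle at day 13 by supplement group, with 1 point per animal and the mean and SD in black. For ALAS2, EPB42 and BPGM all 4 AAC animals lie above all 3 COMBO animals, and for AHSP the groups overlap.

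ALAS2 at day 13 was 173, 339, 911 and 1028 CPM in the 4 AAC animals with BRD, and 21.9, 33.7 and 38.8 CPM in the 3 COMBO animals. In the 7 INR animals it ran from 4.61 to 420.2 CPM with a median of 81.5 CPM. The AAC and COMBO animals did not overlap. The INR range overlapped both, but the AAC animals at 911 and 1028 CPM lay above every INR animal. The log2 difference of AAC over COMBO was 4.28 ± 1.41 (edgeR FDR 0.0613). EPB42 was 7.96, 9.33, 16.7 and 28.1 CPM in AAC and 2.64, 2.82 and 3.19 CPM in COMBO animals, again without overlap, with a log2 difference of 2.43 ± 0.91 (edgeR FDR 0.0978). AHSP was 0.399, 0.857, 1.69 and 2.81 CPM in AAC and 0.333, 0.617 and 0.650 CPM in COMBO animals, so the lowest AAC animal lay within the COMBO range, and the log2 difference was 1.43 ± 0.51 (edgeR FDR 0.0816).

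BPGM, for which edgeR called no change between days, had the smallest FDR among the supplement comparisons. It was 13.6, 15.2, 16.2 and 20.3 CPM in AAC and 9.54, 10.8 and 12.1 CPM in COMBO animals with BRD at day 13, a log2 difference of 0.60 ± 0.16 (edgeR FDR 0.0204). The 7 INR animals ran from 9.22 to 14.9 CPM with a median of 12.2 CPM, overlapping the lowest AAC animal, and AAC was higher by 0.45 ± 0.12 (edgeR FDR 0.0660). SLC4A1 (3.94 to 21.1 CPM in AAC, 0.452 to 1.88 CPM in COMBO) and HEMGN (2.79 to 8.84 CPM in AAC, 0.542 to 1.39 CPM in COMBO) did not overlap either, but missed the threshold at an edgeR FDR of 0.146 and 0.101.

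These supplement differences rested on few animals, and the groups were also measured at day 0, before the feeding period. COMBO steers had by then been drenched before shipment, so day 0 is not an untreated baseline for COMBO. Levels of ALAS2 at day 0 were 2.04 to 81.4 CPM in AAC and 1.73 to 11.5 CPM in COMBO animals with BRD, and 2911 of all tested genes were called between these groups at day 0, 0 of them among the 9. With the change from day 0 compared between the groups and the animal as a block, a fit added after the data were seen, 0 of the supplement comparisons in BRD cattle were called, and the AAC minus COMBO difference for ALAS2 at day 13 was 2.17 ± 1.47 (edgeR FDR 0.4926). Without COMBO animal 16 none of the 9 genes was called between AAC and COMBO at day 13, ALAS2 was also lost without animal 18, 21 or 54, AHSP without 18, 21, 41 or 54, and EPB42 without any 1 of 10 animals. BPGM between AAC and INR was lost without animal 17, 21, 23, 40 or 41, and without INR animal 39 EPB42 (edgeR FDR 0.00812) and AHSP (0.0980) were called there as well. HEMGN was called between AAC and COMBO without INR animal 39, 40 or 43 (edgeR FDR 0.0897 to 0.0932), and SLC25A37 between AAC and INR at day 60 without animal 40 (0.0930). The 3 COMBO animals with BRD shared pen 6, which held no other sampled group, so supplement and pen cannot be told apart there. In these animals the summed level of the 8 globins was 12534 to 84097 CPM in AAC, 1059 to 4685 CPM in COMBO and 393 to 40263 CPM in INR.

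Other gene lists moved beside the 9 genes at day 13. Of all tested genes, 6.11% were called higher and 4.84% lower in healthy cattle, and 9.08% higher and 8.35% lower in BRD cattle. Among the globins, the protein chains of hemoglobin, 5 of 8 tested genes rose in healthy and 7 of 8 in BRD cattle, with none lower. HBB, the adult beta chain, had a median of 84.6 CPM (13.35 to 607) in healthy cattle at day 0 and of 940.3 CPM (90.27 to 5995) at day 13, a log2 fold change of 3.05 ± 0.69 (edgeR FDR 0.00174). In BRD cattle HBB went from 102.7 CPM (35.9 to 1896) to 1901 CPM (169 to 24199), a log2 fold change of 4.16 ± 0.66 (edgeR FDR 2.1e-06), and HBA1, an alpha chain, rose by 4.39 ± 0.88 and 5.55 ± 0.84 in the respective labels. The share of all counts taken by globins thus went from a median of 0.0169% to 0.393% in healthy and from 0.0242% to 0.736% in BRD cattle.

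The other listed enzymes and carriers of heme synthesis moved far less than ALAS2. Of 13 tested genes 2 rose in healthy and 3 in BRD cattle at day 13, with none lower. In BRD cattle ALAD, the second enzyme of the pathway, rose by 0.55 ± 0.13 (edgeR FDR 0.0010) and FECH, which inserts the iron, by 0.21 ± 0.06 (edgeR FDR 0.0118) on the log2 scale. The median log2 fold change of the list was 0.03 in healthy and 0.07 in BRD cattle. Between AAC and COMBO animals with BRD at day 13, ALAD was called higher in AAC, by 1.14 ± 0.39 on the log2 scale (edgeR FDR 0.0685).

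Of 17 tested genes of the red cell membrane and its skeleton, 3 rose and 1 fell in healthy cattle at day 13, and 8 rose and 2 fell in BRD cattle. In BRD cattle the glycophorin gene GYPB rose by 3.08 ± 0.45 (edgeR FDR 2.6e-07), the adducin gene ADD2 by 3.13 ± 0.50 (edgeR FDR 2.1e-06) and DMTN, an actin bundler, by 3.33 ± 0.61 (edgeR FDR 3.8e-05) on the log2 scale. All 3 started from few reads, with median counts at day 0 in BRD cattle of 10.5 for GYPB, 7 for ADD2 and 6.5 for DMTN. ADD2 was at 0 in 4 of these 14 libraries. The genes that fell were CD44 in both labels and CD47 in BRD cattle, both of which are used by many white cells. Of the late maturation genes, 4 of 19 rose in BRD cattle and 2 rose and 1 fell in healthy cattle, the leading one being the carbonic anhydrase CA2, with log2 fold changes of 1.97 ± 0.30 and 1.39 ± 0.32. The listed genes CA1, another carbonic anhydrase, and TSPO2 were at 0 counts in every library.

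Fewer genes of the upstream arms were called. Of all tested genes, 6.11% were called higher and 4.84% lower in healthy cattle, and 9.08% higher and 8.35% lower in BRD cattle. Of 11 erythroid transcription factors 3 rose in BRD cattle at day 13 (LDB1, GATA2 and TAL1) and 1 in healthy cattle (GATA2, by 0.86 ± 0.25 on the log2 scale), and the list's median was 0.11 and 0.03. The count of 1 of 11 in healthy cattle is near the share of all genes. Of 12 tested genes for the erythropoietin signal and iron uptake, 1 rose and 1 fell in each label, which is also near those shares. The iron reductase gene STEAP3 was the one that rose, by 0.70 ± 0.14 in healthy and 0.37 ± 0.13 in BRD cattle, and KIT fell in healthy and ACO1 in BRD cattle. EPOR, the erythropoietin receptor, was at 0 counts in most libraries and was not tested.

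Markers of other blood cells changed over the same days, and their part in the results above was not tested. The shares of all tested genes called from day 0 to day 13 are those given above. From day 0 to day 13, 6 of 13 platelet markers rose and 1 fell in healthy cattle and 9 rose and 2 fell in BRD cattle, and their summed level went from 571 to 3491 CPM (median 1073) to 1209 to 3097 CPM (median 1632) in healthy and from 526 to 2748 CPM (median 1096) to 704 to 3034 CPM (median 1792) in BRD cattle. Of 8 monocyte markers 3 fell and 1 rose in healthy cattle and 4 fell and 1 rose in BRD cattle, with CD14 lower by 0.99 ± 0.17 and 1.35 ± 0.16 on the log2 scale. Of 10 neutrophil markers 1 fell and 1 rose in healthy cattle and 4 fell and 2 rose in BRD cattle. Of 11 eosinophil, basophil and mast cell markers 1 rose and 3 fell in healthy cattle and 5 rose and 1 fell in BRD cattle, among them FCER1A, a basophil and mast cell receptor chain, by 0.88 ± 0.17 and 1.02 ± 0.15 on the log2 scale. KIT, the stem cell factor receptor, stands in this list and in that of erythropoietin signal and iron uptake. T and B cell markers gave 1 call (IL7R, lower) of 17 in healthy cattle and 1 (CR2, higher) in BRD cattle. Day also coincides with library number, with vaccination, with doramectin and with time since transport in this series. It coincides with time on supplemented feed as well, since no group went without a supplement. None of these can be told apart from day.

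Between AAC and COMBO animals with BRD at day 13, the summed B cell markers were 1067 to 1848 CPM in AAC and 2455 to 2532 CPM in COMBO, and the summed monocyte markers 2934 to 5186 CPM in AAC and 1379 to 2088 CPM in COMBO. Neither pair of ranges overlapped, and the same held at days 0, 28, 45 and 60. At day 0 the B cell sums were 975 to 1498 CPM in AAC and 2313 to 3520 CPM in COMBO. The monocyte sums at day 0 were 4046 to 10618 CPM in AAC and 1728 to 3441 CPM in COMBO. These differences of B cell and monocyte markers were thus present at enrollment. The summed neutrophil markers did not overlap at day 13 either (1589 to 2992 CPM in AAC, 894 to 1503 CPM in COMBO), but overlapped at day 0. The sums of the red cell membrane and late maturation lists also did not overlap at day 13. Those of platelet, T cell, and eosinophil, basophil and mast cell markers overlapped at day 13. Of the single markers at day 13, MS4A1 (B cells) and GP5 and PPBP (platelets) were called lower in AAC, and LYZ (monocytes), LTF (neutrophils) and CD5 (T cells) higher. The part of these markers in the differences of the erythroid genes was not tested.

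The last question was which of the 9 genes varied together. After subtraction of the mean of each disease label, supplement group and day, the log2 CPM of ALAS2, AHSP, SLC4A1, HEMGN and EPB42 had pairwise Pearson r of 0.52 to 0.88 over all libraries (10 pairs, median 0.68). Between these 5 and SLC25A37, BPGM, KLF1 and GATA1, r ran from -0.10 to 0.44 (20 pairs, median 0.19), and among the latter 4 genes from -0.15 to 0.27 (6 pairs). The split into 5 and 4 genes was made after these values were seen. The libraries share 26 animals and a common scaling, so the correlations are given as descriptions.

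**Figure D5:**
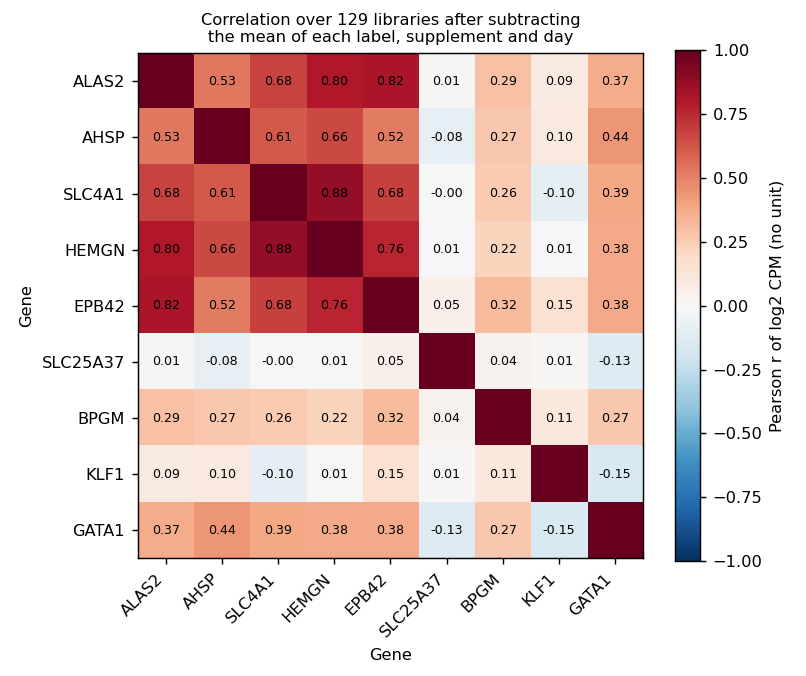
Pearson r between the 9 genes (both axes) of log2 CPM over all libraries after subtracting the mean of each label, supplement group and day. The block of ALAS2, AHSP, SLC4A1, HEMGN and EPB42 has r of 0.52 to 0.88, whereas SLC25A37 and KLF1 have r between -0.15 and 0.15 with every other gene.

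The genes outside the 9 with the most similar pattern were named by Pearson r over the same values. For ALAS2 they were HBB (r of 0.93), REEP1 (0.92) and HBA1 (0.90), for SLC4A1 DMTN (0.86), HBM (0.81) and LOC616574 (0.79), for HEMGN LOC616574 (0.87), DMTN (0.86) and REEP1 (0.86), for EPB42 DMTN (0.80), HBB (0.79) and CHAC2 (0.78), and for AHSP LOC101906604 (0.64), DMTN (0.63) and SEMA6B (0.63). Thus DMTN, with a median count of 16, stood among the 3 most similar genes of 4 of the 9.

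For GATA1 the most similar genes were GFI1B (0.89), a repressor used in the erythroid and megakaryocyte lines, CEBPE (0.86), a factor of late granulocytes, and ALOX5 (0.84), a leukotriene enzyme of granulocytes. Among the listed markers of eosinophils, CCR3 (0.83) and IL5RA (0.82) followed, while r of GATA1 with the 5 genes above was 0.37 to 0.44. For BPGM they were SLC25A39 (0.66), TMEM9B (0.64) and H3F3A (0.63). For KLF1 the highest values were only 0.53 (GOT1L1), 0.51 (LOC100139325) and 0.49 (LOC112449590), and for SLC25A37 only 0.40 (ARL11), 0.39 (LOC616400) and 0.39 (FAM83H).

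The variance of each gene was described by animal and, separately, by day. These shares were not corrected for the number of groups, and a share grows with that number even without real differences. As there are many more animals than days, the animal and day shares cannot be compared with each other. Low shares may hold little real variation. Of the total sum of squares of log2 CPM, the animal accounted for 24.4% (SLC25A37) to 43.6% (GATA1). The day accounted for 33.1% for ALAS2, 25.9% for EPB42, 18.3% for HEMGN, 13.4% for SLC4A1, 10.8% for AHSP and 10.1% for KLF1, and for 6.66% to 7.75% for SLC25A37, GATA1 and BPGM. Single animals moved in different directions at later days. Healthy AAC animal 46 had the highest healthy ALAS2 level, 673 CPM at day 45, after 33.23 CPM at day 28 and before 43.5 CPM at day 60. BRD INR animal 17 had 14.5 CPM at day 13, 205 CPM at day 45 and 3.47 CPM at day 60, whereas BRD INR animal 43 never exceeded 20.8 CPM.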

How the data were processed

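Whole blood was drawn into Tempus tubes, and stranded poly(A) libraries were sequenced. Per the labels and the study's methods, the authors trimmed with Trimmomatic 0.39, used HISAT2 for alignment (genome build ARS-UCD1.3) and StringTie 2.2.0 for assembly, and deposited gene counts that prepDE derives from coverage. No removal of globin transcripts is described in the sources used here.

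The 9 genes, the gene lists and the rule for named genes (the 9 genes, the 3 most similar genes of each, the leading calls of each list) were chosen with earlier results of these data known. Counts of all 129 libraries were fitted in R 4.3.3 with edgeR 4.0.16: filterByExpr over 30 combinations of label, supplement group and day, TMM, common dispersion, quasi-likelihood F-tests and Benjamini-Hochberg adjustment over all genes tested. Comparisons within a day used a mean per combination, with supplement groups weighted equally between labels. Changes between days used the animal as a block, since each steer was bled repeatedly: deviations from group means correlated with a median r of 0.37 within an animal and -0.01 between animals. The biological coefficient of variation was 39.0% and 28.4% in the 2 fits. SE is the log2 fold change divided by the square root of F. Replicates are separate animals, and no pair of libraries of the same label, supplement group and day agreed within sampling noise. Other pairs were not compared in this way. A count floor covers counting error only. Alternatives were DESeq2 1.42.0, limma 3.58.1 with voom, other scalings, filters, dispersions and subsets, and each animal left out. Fits were tested on simulated data. List genes such as RHD, CSF3R, EPX and TRAC were not analysed here, and single values of some list genes are not reported here. Figures used matplotlib 3.10.9.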

Additional observations from a re-analysis of the deposited data

Results flagged for a closer look

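In groups of 4 to 10 animals with the same label, supplement and day, a library was marked when its gap to the next, on the log2 scale, was large against the range of its group. Of 216 such groups over the 9 genes, 8 were marked, while chance marks about 1 in 20. AHSP was low in BRD INR animal 23 at day 0 (0.167 CPM, others from 0.316 up) and in BRD AAC animal 21 at day 45 (0.360 CPM, others 0.894 to 0.962). HEMGN was high in healthy COMBO animal 6 at day 0 (4.05 CPM, others 0.211 to 0.338) and in BRD AAC animal 9 at day 60 (1.95 CPM, others 0.611 to 0.735). EPB42 was high in BRD AAC animal 41 at day 28 (8.16 CPM, others 1.08 to 1.48), and BPGM in BRD AAC animal 31 at the same day (14.9 CPM, others 10.7 to 11.2). SLC25A37 was high in healthy INR animal 7 at day 28 (8.63 CPM, others 4.60 to 5.01) and low in healthy INR animal 50 at day 45 (0.658 CPM, others 4.46 to 5.88). No gene changed in opposite directions in every healthy and every BRD animal between any pair of days tested. This rule is hard to meet with the spread between animals, so it does not show that the labels changed alike.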

How the results depend on the processing

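Over alternatives other than left-out animals, 190 of 190 values of the 19 called differences kept their direction and 155 stayed past the threshold. Of the 6 genes called in BRD cattle from day 0 to 13, 5 were called under all 10 alternatives and KLF1 under 9. The 11 calls for day changes in BRD cattle became 6 with no replicate block (KLF1 at day 13, GATA1 at day 45, EPB42 from day 45 to 60, and ALAS2 and GATA1 from day 0 to 60 were lost) and 7 at an FDR below 0.05. The 5 supplement calls in BRD cattle became 3 with no filter on low counts, 9 with limma voom, 2 with BRD libraries alone, 1 at an FDR below 0.05 and 0 with the replicate block and change from day 0, which was chosen after seeing the data. The cause was not tested. With each animal left out in turn, calls ranged from 8 to 14 for day changes in BRD cattle, 2 to 5 for those in healthy cattle, 1 to 8 for supplement groups of BRD cattle, 0 to 0 for those of healthy cattle, 0 to 1 for BRD against healthy and 0 to 0 for the difference in day changes. BRD against healthy and, within a day, the supplement groups could not be paired by animal, since these are different animals, and a block on the pens that both labels shared was not run. Among the 9 genes depth limits AHSP, HEMGN and SLC4A1, with median counts of 21 to 29. It also limits list genes such as DMTN and ADD2, with median counts of 16 and 13.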
